A study of Mus musculus with 8 samples.

Results

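Of 14566 genes with reads counted on both strands in the mouse suprachiasmatic nucleus (SCN), 502 had a mean antisense count of at least 10 and of at least 0.2 of their mean sense count, over 8 libraries. A gene's antisense count is the number of reads on the strand opposite to that gene. These 502 members were chosen from the mean counts of the gene rows, so their levels and ratios are given as a description, with no test. More antisense than sense reads were counted in 343 of them, and in the other 159 the ratio lay between 0.2 and 1. Sense and antisense tables had each been brought to one total per library before deposit, so a ratio is only a cut and not a measured strand balance. Of the 15290 rows on the antisense side, 724 had no sense row and could not enter, among them 33 with a mean of at least 10.

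The SCN is the circadian pacemaker of the hypothalamus. All libraries came from C57/BL6 mice kept for 3 weeks on 12 h of light and 12 h of darkness and then moved to constant darkness. Each library pooled polyA RNA of 3 mice and was prepared with a strand-preserving kit. The 8 libraries fell on CT22 (22 and 46 h), CT4 (28 and 52 h), CT10 (34 and 58 h) and CT16 (40 and 64 h), so each circadian time had 2 libraries 24 h apart. CT4 and CT10 are the subjective day. The labels state no replicates, place the start of collection at CT18 and give the first library as CT22, and p-values measure the spread between pooled libraries only. In bulk tissue, fewer cells of a type and less RNA per cell cannot be told apart. Of the SCN genes, Vip had 2109 to 4132 sense reads per library, Avp 140 to 604, Six6 343 to 950 and Lhx1 267 to 885.

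Antisense reads can arise in several known ways. Neighbouring genes on opposite strands may overlap where their 3′ ends meet, at their start sites, or with one gene lying inside the other, and a transcript of the partner is then counted as antisense to its neighbour. Natural antisense RNAs, such as those of imprinted loci, are a further class, and mature transcripts that run past an annotated end can also reach a neighbour. Reads given the wrong strand during library preparation add a low level to every expressed gene.

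RefSeq start-site windows (250 bases before and 50 after the start, GRCm38.p6) of a divergent pair are printed 5′ to 3′. They are those of Lrrc40 (chr3:158036432-158036731, plus strand) and Srsf11 (chr3:158036557-158036856, minus strand). Lrrc40 is a member and Srsf11, a splicing factor gene, is its opposite-strand partner. Capitals mark the 175 bases that both windows hold, read on opposite strands. Each window reaches 250 bases before its start, so the capitals show shared window sequence and not an overlap of transcripts.
Lrrc40: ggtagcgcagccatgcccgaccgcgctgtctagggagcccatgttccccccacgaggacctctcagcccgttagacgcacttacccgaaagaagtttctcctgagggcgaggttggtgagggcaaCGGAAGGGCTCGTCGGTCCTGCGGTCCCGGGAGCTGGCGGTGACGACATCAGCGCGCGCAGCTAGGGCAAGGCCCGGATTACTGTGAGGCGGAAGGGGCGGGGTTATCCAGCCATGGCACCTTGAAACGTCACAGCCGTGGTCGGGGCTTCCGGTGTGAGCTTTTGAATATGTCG
Srsf11: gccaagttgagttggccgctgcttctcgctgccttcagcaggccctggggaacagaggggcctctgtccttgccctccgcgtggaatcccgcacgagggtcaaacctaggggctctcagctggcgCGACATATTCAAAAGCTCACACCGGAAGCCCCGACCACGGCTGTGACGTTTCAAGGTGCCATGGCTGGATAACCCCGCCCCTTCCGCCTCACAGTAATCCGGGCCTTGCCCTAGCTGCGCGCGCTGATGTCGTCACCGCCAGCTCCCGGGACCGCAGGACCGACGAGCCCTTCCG
The window of Dbp (chr7:45704997-45705296, plus strand) is shown because Dbp, a clock-driven transcription factor gene, is a partner of Sphk2, a member whose antisense reads are described over circadian time.
Dbp: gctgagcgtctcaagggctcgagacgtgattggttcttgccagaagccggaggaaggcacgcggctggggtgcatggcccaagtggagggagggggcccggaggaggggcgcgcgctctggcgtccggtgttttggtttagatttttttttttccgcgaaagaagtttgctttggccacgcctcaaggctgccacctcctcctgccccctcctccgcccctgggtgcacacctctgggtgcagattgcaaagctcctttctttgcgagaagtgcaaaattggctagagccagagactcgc
Searched on both strands, that window held no E-box CACGTG, D-box TTANGTAA, AGGTCA core of a ROR or REV-ERB element, or cAMP response element TGACGTCA. Of 32851 RefSeq windows, 7.15%, 2.32%, 16.3% and 1.79% held these motifs in the same order. These windows are on another build than the counts, whose coordinates are mm9.

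One library stood apart in its antisense reads. In the 34-h library (CT10 replicate 1), members held 96079 of 149675 antisense reads (64.2%), against 32.2% to 41.4% in the other 7. The median member lay 0.68 above its own mean there on the log2 scale (0.5 added to each count), while the 1940 genes with a mean antisense count of at least 10 and a lower ratio, called other genes here, lay 1.58 below theirs. In 395 of 502 members this was the library with the highest antisense count. Every library had been brought to one antisense total, so lower counts of other genes go with higher counts of members. The rise of members at 34 h, here and in single genes below, is therefore not separate from the fall of the others. In 1170 of the other genes with no overlapping opposite-strand gene, summed antisense reads were 0.312% of summed sense reads in the 34-h library and 0.858% to 1.09% elsewhere. Summed sense reads of the 201 members with a ratio above 10 were 523 there and 882 to 1234 elsewhere. Whether this library had fewer wrong-strand reads was not tested. Without it, 476 genes met the rule, 328 of them with a ratio above 1. Oligodendrocyte markers summed to 56968 to 178726 sense reads, with 172488 in the 34-h library and the highest sum at 64 h. A list of arcuate and magnocellular neuron markers summed to 2587 at 34 h and 946 to 2580 elsewhere. On it, Pomc had 582 sense reads at 34 h and 13 to 129 elsewhere. Npy had 193 and 26 to 58, and Agrp 35 and 0 to 4. Oxt, Avp and Kiss1 were highest in other libraries. The part of these markers in the results was not tested.

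**Figure D1:**
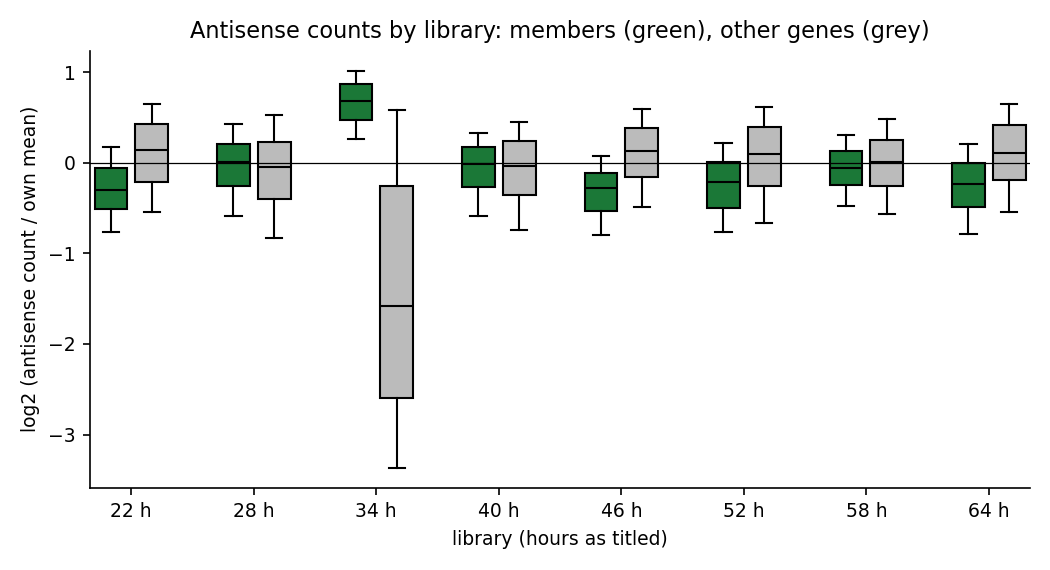
Antisense counts in each library relative to the gene's own mean over 8 libraries (log2), for 502 members (green) and 1940 other genes (grey). Boxes show quartiles, whiskers the 10th to 90th percentiles. In the 34-h library the medians were 0.68 for members and -1.58 for other genes.

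Members were mostly weakly expressed on their own strand. Their median mean count was 51.3 antisense and 10.6 sense, with a median ratio of 5.03, and 247 had a mean sense count under 10. A ratio above 10 was found in 201 and above 100 in 36. The other genes had a median ratio of 0.0107. By gene ID in GENCODE M21, 273 members were protein-coding, 71 antisense, 30 processed transcripts and 7 lincRNAs, and 108 were not matched. Of the 273 protein-coding members 134 had a ratio above 1, as did 65 of the 71 in the antisense class. Just inside the ratio limit lay Xrcc3 (0.202), 1700030K09Rik (0.205) and Vprbp (0.207), and just outside Homer3 (0.199), Aldh1l2 (0.196) and Fam69a (0.196). At the count limit, 4 members had a mean of exactly 10, among them Avpr2, Gm17543 and Gm17659, and Gm14964, Gm8327 and Zscan30 missed it with 9.88.

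**Figure D2:**
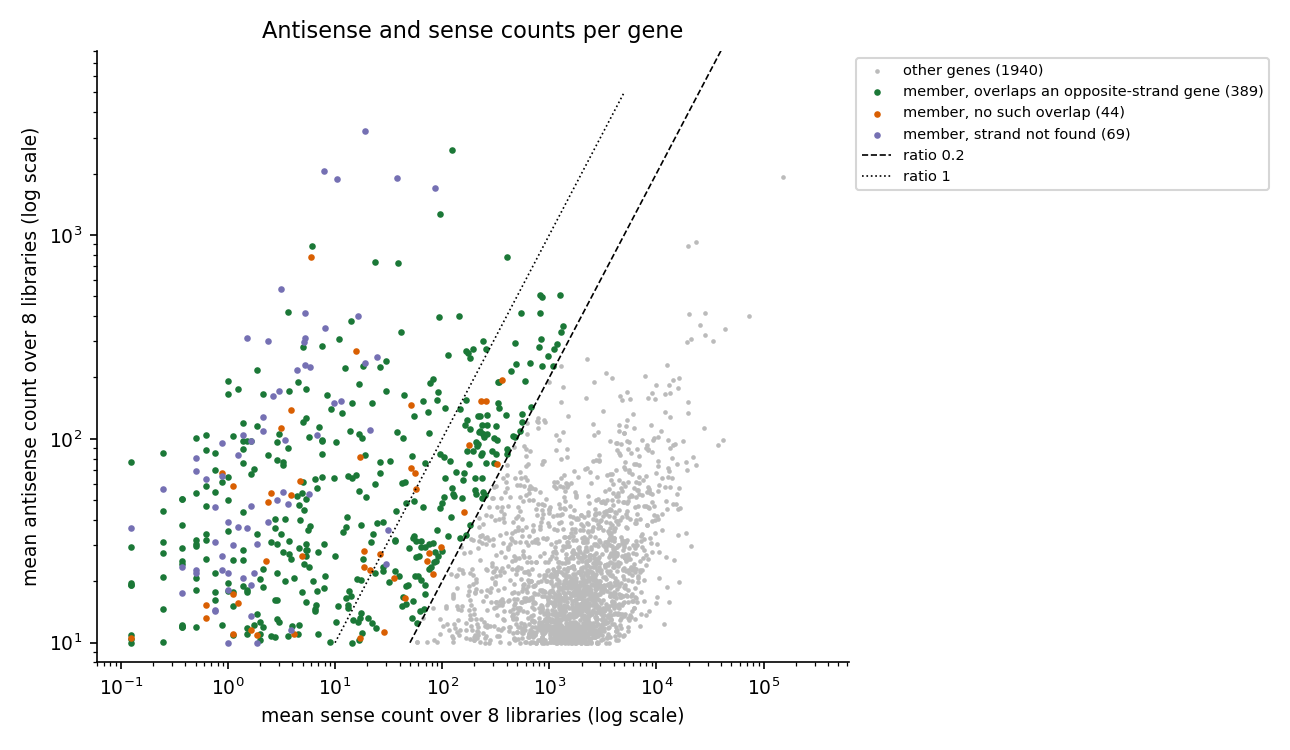
Mean antisense count against mean sense count over 8 libraries for each gene, on log axes. Members lie above the dashed line (ratio 0.2), 343 of them above the dotted line (ratio 1), and other genes (grey) lie below it.

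Most members overlapped a gene on the opposite strand. The tables give no strand, so strand was taken by gene ID or symbol from GENCODE M21 and RefSeq, which placed 433 members. Of these, 389 (89.8%) overlapped an opposite-strand gene by at least 1 base in mm9. Among the other genes it was 766 of 1936 (39.6%), and among all genes in both tables with a strand 4796 of 14365 (33.4%). The share was 246 of 275 for members with a ratio above 1 and 143 of 158 for those below it, so it was about the same on either side of 1. Among genes that met the rule without the 34-h library it was 366 of 409. Exon rows of both genes were at hand for 235 members, and in 208 of these exons of the 2 genes shared bases.

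Most members had a partner with a higher sense count than their own. The rule picks genes with few sense reads relative to antisense reads, so it favours this, and other genes were not compared. Of 388 members whose partner with the longest overlap had a sense row, 363 had a partner sense count above the member's antisense count, and 358 a partner sense count above the member's own. Median mean sense counts were 629 for the partners and 16.6 for the same members. For the median member, antisense reads came to 10.4% of the partner's sense count, across tables of unequal scaling.

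Overlap at the 3′ ends was the commonest arrangement. It held for 259 members (66.6% of 389), with a median overlap of 2453 bases and a range of 13 to 63303. A further 72 lay inside the partner, 36 overlapped it at the 5′ ends and 22 held the partner within them. For the other genes with an overlap the shares were 60.1% at 3′ ends, 3.79% inside, 18.9% at 5′ ends and 17.2% holding the partner. Members inside a partner had a median ratio of 16.8, against 1.41 for 3′ overlaps, 2.32 for 5′ overlaps and 2.68 for those holding a partner. Among the 282 members with antisense exon rows, the exon with the highest antisense count was the last in 218 (77.3%), compared with 1228 of 1911 other genes (64.3%). In 108 of 274 members with both kinds of row, the highest intron exceeded the highest exon.

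**Figure D3:**
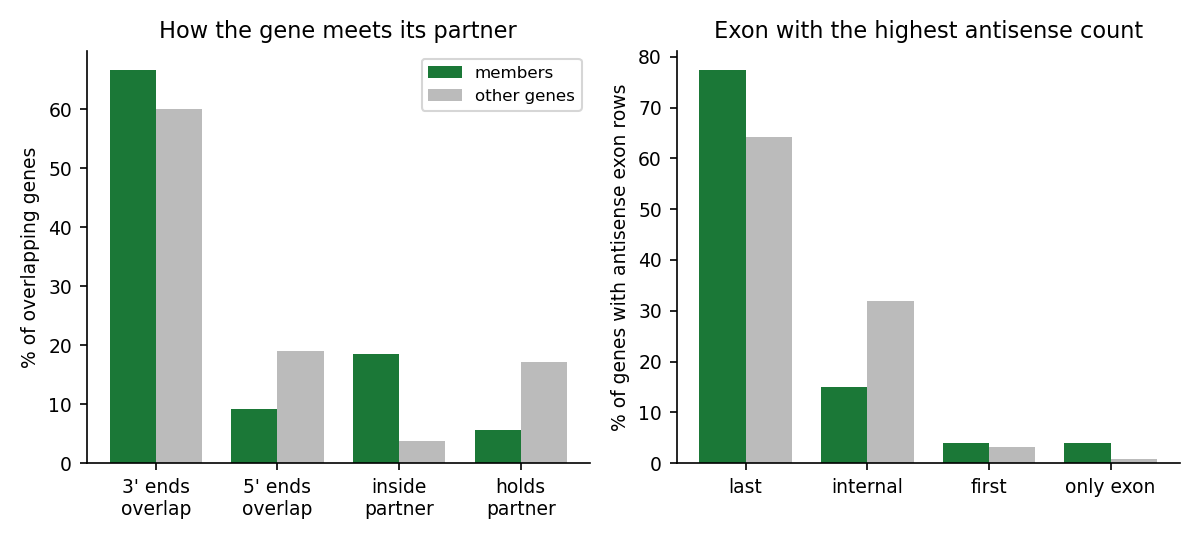
Left, how each gene meets the opposite-strand gene of longest overlap, as a percentage of 389 members (green) and 766 other genes (grey). Right, the place of the exon with the highest antisense count, in 282 members and 1911 other genes: the last exon in 77.3% and 64.3%.

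Among the members with the most antisense reads, several lay opposite strongly expressed genes. Gm14703 (mm9 chromosome X, 7228072-7234397, minus strand) had a mean of 2611 antisense and 123 sense reads and overlapped 2453 bases of the 3′ end of Syp, which encodes the synaptic vesicle protein synaptophysin (mean sense count 12057). Its antisense counts at 22, 28, 34, 40, 46, 52, 58 and 64 h were 2171, 2884, 4335, 2744, 2093, 2146, 2699 and 1812, highest in the 34-h library. Syn3, a synapsin gene, holds Timp3, a metalloproteinase inhibitor gene, in its span and had 1270 antisense against 94.9 sense reads. Slc3a1, a subunit of an amino acid transporter, had 879 antisense and 6.13 sense reads and overlapped 952 bases at the 3′ end of Prepl (mean sense count 8924). Mrps25, a mitochondrial ribosomal protein gene, had 783 antisense and 402 sense reads over the 3′ end of Nr2c2, an orphan nuclear receptor gene. Gins2, a replication factor gene, had 380 antisense and 14.0 sense reads over the 3′ end of Gse1. The member 9530082P21Rik had 735 antisense reads and overlapped 1612 bases at the 3′ end of Flywch1 (mean sense count 3496), 1173 of them between exons. It also overlapped 2623 bases at the 5′ end of Kremen2 (mean sense count 5.50), 0 of them between exons. Gm17275 lay wholly inside H3f3a, a histone gene, with 310 antisense reads that ranged narrowly from 277 to 327 and were not highest at 34 h.

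For 69 members no strand was found, and these held 5 of the 6 highest antisense means. In 65 of them another gene overlapped by coordinates, whose relative strand is not known here. Gm9851 (3236 antisense, 19.1 sense) lay over Abat, the gene of the enzyme that breaks down GABA. Gm17321 (1899 antisense) lay over 3273 bases of Nt5dc1 (57.5 sense) and 2031 of Tspyl4 (12800 sense). Gm9793 (1697 antisense) lay over 13196 bases of Gm15710 (2.38 sense) and 4388 of G3bp2 (6642 sense). Gm17639 (1884 antisense) lay over the imprinted RNA Meg3, and Gm10483 (402) over Odz1. Sense counts of Gm17639 ranged from 0 at 34 h to 23 at 52 h.

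Of the 44 members with a strand and no overlapping opposite-strand gene, 34 had one within 5000 bases, on the 3′ side in 25 and on the 5′ side in 9. The 6 with the most antisense reads were Klhl10, Map3k4, Fbxo7, Fam36a, Rtl1 and Itgbl1. Klhl10 had 778 antisense and 6.00 sense reads and started 67 bases from Nt5c3l, which had a mean sense count of 352. Fam36a (152 antisense) ended 347 bases from Hnrnpu, an abundant RNA-binding protein gene (6536 sense). Itgbl1 (147) ended 1798 bases from Fgf14 (475 sense), and Fbxo7 (194) 2782 bases from Syn3. Map3k4 (270) ended 12766 bases from Agpat4. Thus the gap to the nearest gene ranged widely among these 6.

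Members were counted on lists of imprinted genes and of known sense and antisense pairs. On a list of 41 imprinted genes, 3 of 32 in both tables (9.38%) were members, compared with 3.45% of all genes. Only 21 of the 32 had a mean antisense count of at least 10, so 3 of 21 were members at that count. Among all genes at that count it was 502 of 2442 (20.6%), so no excess of imprinted genes was seen there. Nespas, the antisense RNA of the Gnas locus, had 121 antisense and 5 sense reads, and Gnas, the stimulatory G-protein subunit, had a mean sense count of 19076. Mest had 53.4 antisense reads over the end of Copg2, the gene that overlaps it. Rtl1, a retrotransposon-derived gene of the Meg3 locus, had 152 antisense and 232 sense reads, with Rian as its nearest opposite-strand gene 3596 bases away. On a list of 36 genes of known pairs, 3 of 26 (11.5%) were members, and 12 of the 26 had a mean antisense count of at least 10. Bace1, the beta-secretase gene, had 228 antisense reads and overlapped Rnf214 and Gm16536 (384 sense). Dlx1as had 66.4 antisense reads and overlapped Dlx1, and Pax6 had 196 over the end of Elp4. No gene of the core clock list (0 of 22 in both tables) or of the SCN peptide and identity list (0 of 20) was a member. In the astrocyte, oligodendrocyte and microglia lists it was 0 of 12, 0 of 12 and 0 of 10. Few genes of these lists had a mean antisense count of at least 10. In the core clock and SCN lists they were 4 and 1, and in the astrocyte, oligodendrocyte and microglia lists 6, 7 and 1. With a share of 3.45% among all genes, lists this short say little about these genes.

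Change with circadian time was tested across all 3693 antisense rows that passed a filter of 10 reads in 2 libraries, all 502 members included. The edgeR quasi-likelihood test, with Benjamini-Hochberg adjustment, called 0 of 3693 rows (0%) in the 24-h test, and 0 for day against night or dusk against dawn. DESeq2 called 4 rows (0.108%) in the 24-h test, of which Sphk2, Pter and Tstd2 are members, and 0 on both axes. At an unadjusted p under 0.05, the 24-h test held 38 of 502 members (7.57%) against 128 rows (3.47%). With other scalings the 24-h count of members was 241 (48.0%) against 420 rows (11.4%) by DESeq2, and 113 (22.5%) against 240 rows (6.5%) with TMM of the antisense table. Scaled to the members, a setting added after the data were seen, it was 6 (1.20%) against 97 rows (2.63%), below the share of all rows. The day-night test held 31 members against 175 rows (4.74%), and the dusk-dawn test 32 against 126 (3.41%). Without the 34-h library the 24-h test held 40 of 501 members (7.98%) against 202 of 3592 rows (5.62%). The median day-night difference of members was 0.34 (log2) with all libraries and 0.15 without the 34-h library, while that of all rows was -0.22 and -0.04. The members' median was 0.74 by DESeq2, 0.57 with TMM of the antisense table and 0.01 scaled to the members. Day against night and without the 34-h library, edgeR called 2 of 3592 rows (0.0557%), Pter and Zmym1. The change in antisense relative to own sense was called in 0 of 3372 genes (0%) by edgeR and by DESeq2, with 23 of 286 tested members at an unadjusted p under 0.05 against 118 genes (3.5%).

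Reads opposite to the last exon of Sphk2 rose by day together with Dbp. Sphk2 (ENSMUSG00000057342, mm9 chromosome 7, 52964603-52973402, minus strand) encodes a sphingosine kinase and overlaps 972 bases at the 3′ end of Dbp (ENSMUSG00000059824, 52960391-52965574, plus strand), 540 of them between exons. It also overlaps Rpl18, a ribosomal protein gene, by 2614 bases at the 5′ ends. Antisense counts of the last exon (52964599-52967181) at 22, 28, 34, 40, 46, 52, 58 and 64 h were 100, 261, 530, 172, 113, 315, 317 and 143. All 4 day libraries lay above all 4 night libraries. How many of all rows separate day from night in this way was not counted. Genes described over time were picked by low p or after their values were seen. Their separation, here and below, is therefore a description only. In the antisense exon table, a readout added after the gene table was seen, the day-night difference was 1.42 ± 0.20 (SE, log2), with an adjusted p of 0.00576 in the edgeR 24-h test. Of 10855 exon rows tested, 2 were called (0.0184%), and both were versions of this exon. Without the 34-h library the difference was 1.26 ± 0.20 and the adjusted p 0.00374 (edgeR). The fitted peak lay at CT8.43 with all libraries and CT8.12 without the 34-h library.

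Exon and gene counts cannot be read on one scale. In 267 members with a highest exon of at least 10 antisense reads, that exon had a median of 2.20 times the count of the whole gene. Over the whole gene row, Sphk2 antisense counts in the same order were 45, 68, 135, 30, 31, 81, 80 and 41. Here too the day and night values did not overlap, but the edgeR 24-h test gave an adjusted p of 0.881 and DESeq2 0.0387. Sense counts of Dbp were 434, 741, 1046, 355, 352, 857, 890 and 430, with a fitted peak at CT7.46. Rpl18 had 991 to 1499 sense reads, with no call (adjusted p = 0.709, edgeR). Sphk2's own sense counts were 317, 231, 178, 238, 223, 201, 234 and 265, with an adjusted p of 0.663 (edgeR). Dbp was the only one of 459 tested partner genes called in the sense 24-h test by edgeR, against 17 of 15217 genes (0.112%).

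Antisense reads of Pter were also higher by day. Pter (ENSMUSG00000026730, chromosome 2, 12845653-12925339, plus strand), a phosphotriesterase-related gene, overlaps 354 bases at the 3′ end of C1ql3 (ENSMUSG00000049630, 12924986-12933522, minus strand), which encodes a secreted C1q-like protein of neurons. Its antisense counts at the same times were 450, 1010, 1284, 509, 459, 746, 871 and 507, so all day values exceeded all night values. The day-night difference was 1.01 ± 0.24 (SE, log2) with an adjusted p of 0.455, and 0.88 ± 0.18 with 0.0125 without the 34-h library (edgeR). In its last exon (12922484-12925339) the counts were 1104, 2049, 1535, 1023, 1134, 1777, 1799 and 1139, again with no overlap of day and night. There the 24-h adjusted p was 0.444, and 0.0375 without the 34-h library, where 4 of 10564 exon rows were called (0.0379%, edgeR). C1ql3 sense counts were 529, 665, 487, 377, 386, 556, 662 and 544, with a day-night difference of 0.36 ± 0.14 and a 24-h adjusted p of 0.595 (edgeR). Day and night values of C1ql3 overlapped.

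Zmym1 antisense reads ran the opposite way, and this gene was chosen after its values were seen. Zmym1 (ENSMUSG00000043872, chromosome 4, 126724057-126738411, minus strand), a zinc finger gene, overlaps 2756 bases at the 3′ end of Gm12940 (ENSMUSG00000085334, 126710964-126726812, plus strand). Gm12940 in turn overlaps Sfpq, a splicing factor gene on the same strand that ends at 126714265, before Zmym1. Zmym1 antisense counts were 299, 158, 244, 421, 318, 244, 149 and 371, so all night values exceeded all day values. The day-night difference was -0.83 ± 0.27 (SE, log2; adjusted p = 0.821), and -0.92 ± 0.21 (0.0412) without the 34-h library (edgeR). Sense counts were 750, 408, 368, 686, 701, 599, 427 and 763 for Gm12940 and 1868, 1350, 1651, 2551, 1892, 1481, 1343 and 2449 for Sfpq. Both were also higher in every night library than in any day library, but Gm12940 was not called in the sense 24-h test (edgeR). In the antisense exon readout, the day-night difference of Zmym1 was -0.67 (log2) with all libraries, where it was not called. It was -0.81 without the 34-h library. Zmym1's own sense counts ranged from 173 to 246 (adjusted p = 0.786, edgeR).

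**Figure D4:**
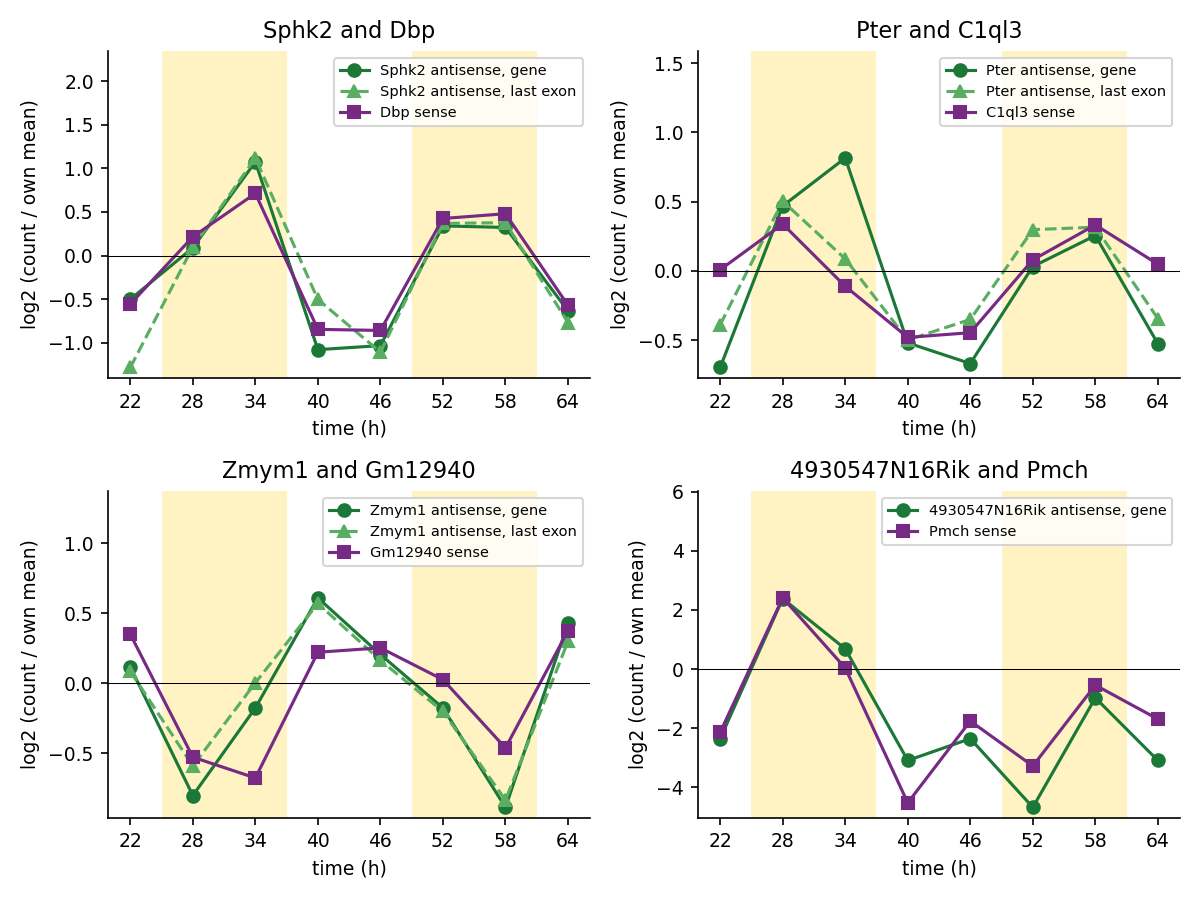
Antisense counts of 4 members over the gene and, where present, its last exon (green), and sense counts of the opposite-strand partner (purple), as log2 of count over own mean (0.5 added) against time in hours. Yellow bands enclose the subjective-day libraries (CT4 and CT10) and are not drawn at the exact limits of the day. In these libraries, Sphk2 and Pter antisense counts were above all their night values and those of Zmym1 below.

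The lowest 24-h p among members belonged to 4930547N16Rik, with antisense counts of 2, 66, 20, 1, 2, 0, 6 and 1 at the same times. It met the count minimum through the 28-h and 34-h libraries, and its adjusted p was 0.881 (edgeR). It overlaps 1142 bases at the 3′ end of Pmch, the melanin-concentrating hormone gene of hypothalamic neurons outside the SCN. Pmch sense counts were 49, 1154, 223, 9, 64, 22, 149 and 67, so both counts were highest in the same library and only there and at 34 h did the member exceed 6. The part of tissue boundaries in this was not tested. Without the 34-h library the gene did not pass the filter. In the same way, Galnt5, chosen after its values were seen, had 3 to 28 antisense reads opposite Ermn, a myelin gene with 809 to 3562 sense reads, and both were highest at 64 h.

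Tstd2, Ccdc24 and Klhdc9 complete the 6 members with the lowest 24-h p, and none was called by edgeR (adjusted p = 0.881 each). Antisense counts of Tstd2, opposite the 3′ end of the tropomodulin gene Tmod1, were 38, 96, 183, 62, 56, 63, 105 and 78. Day and night values overlapped at 52 h. Klhdc9, opposite the prefoldin gene Pfdn2, had 40, 53, 145, 45, 35, 60, 73 and 40, and Ccdc24, inside the glycine transporter gene Slc6a9, had 136, 156, 452, 233, 171, 188, 283 and 184. Day and night values did not overlap in Klhdc9 and overlapped in Ccdc24, and all 3 genes were highest in the 34-h library. The authors' deposited table gave 26 members a JTK adjusted p under 0.05 (5.18%), compared with 257 of 15290 antisense rows (1.68%), and 17 of the 26 a peak at 10 h. Its q-value was 1 for every antisense row. Peak times of the 257 rows were not compared with those of the members. The 34-h library, at CT10, held the highest count of 395 of 502 members, so a shared 10-h peak cannot be told apart from that library.

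Of 286 members with a tested sense row, B3gat2 alone (0.35%) was called in the sense 24-h test by edgeR (adjusted p = 0.0337). Among all genes tested, 17 of 15217 were called (0.112%). B3gat2 encodes a glucuronosyltransferase of neural cells, and its sense counts were 1313, 1224, 827, 1007, 1705, 1317, 888 and 1078, lowest at CT10 in both cycles. Its antisense counts were 197, 265, 513, 339, 247, 239, 266 and 263, highest in the 34-h library (adjusted p = 0.881, edgeR). The partner Smap1, which overlaps 4769 bases at the 3′ end, stayed between 731 and 822 sense reads. The B3gat2 call was lost without 5 of the 8 libraries.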

How the data were processed

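Polyadenylated SCN RNA of 8 libraries was analysed. The submitters' processing notes name STAR 2.3.0e and the mm9 build. Values in the deposited tables are whole-number counts of reads per gene, exon or intron by strand. Column totals had been equalised by table, to 11123610 to 11131890 sense and 149603 to 149800 antisense gene reads per library. Neither the counter nor the equalising step is given in the sources used here. The authors also deposited JTK p-values and q-values. A JTK peak time in hours is also given, per the file headers. The number of columns without a sample was 0.

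The quasi-likelihood F test of edgeR 4.0.16 in R 4.3.3 was run with day-night and dusk-dawn terms, a filter of 10 reads in 2 libraries and Benjamini-Hochberg adjustment at 0.05. Antisense rows were scaled by TMM library sizes from the sense table. DESeq2 1.42.0 and the settings below were alternatives. Fits were also run on simulated data. The simulated counts spread less between libraries than the antisense counts and held no outlying library, so they give no power for these tests. Strand came from GENCODE M21 and RefSeq names, and coordinates from the tables. Named genes were the 12 members with the most antisense reads, the 10 of highest ratio with at least 10 sense reads, the 6 of lowest 24-h p, those at the limits, listed genes, the 6 without overlap, and partners. One member named by this rule is not reported here. The members, lists and exon readout were chosen with earlier results of these data known.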

Additional observations from a re-analysis of the deposited data

How the results depend on the processing

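The antisense 24-h test called 0 rows with all libraries by edgeR. It called 4 rows (3 members) by DESeq2, 1 (1 member) with TMM of the antisense table and 3 (2 members) without a filter. Leaving out 1 library at a time gave 0 to 1 rows and 0 to 1 members. Day against night, the counts were 0 by edgeR, 1 (1 member) with TMM of the antisense table, 2 (2 members) without a filter, and 0 to 2 rows and 0 to 2 members without 1 library. Dusk against dawn, 1 row and 0 members were called without a filter. Settings added after the data were seen gave these counts: scaled to the members without CT10 replicate 1, 3 rows (2 members) in both the 24-h and the day-night test; the newer quasi-likelihood method, 1 row (1 member, 4930547N16Rik) in both; the antisense exon table, 1 member in both with all libraries and 2 without CT10 replicate 1. The newer method also called 10 genes (9 members) for antisense relative to sense. The sense 24-h test called 17 genes (1 member), against 98 (2) by DESeq2, 362 (6) without a filter and 7 to 43 (0 to 1) without 1 library. The causes were not tested. Of the 7 genes described over time, none changed its day-night direction under the settings that gave it a value. For 4930547N16Rik these exclude the antisense exon table, the fits without CT10 replicate 1 or CT4 replicate 1, and the scaling to the members without CT10 replicate 1. The genes were chosen by low p or after their values were seen, and all settings reuse the same libraries. A kept direction was therefore likely beforehand and gives no separate support. Across scalings, Sphk2 and Pter antisense reads stayed higher by day and those of Zmym1 lower. The median day-night difference of all rows was -0.22 (log2) in the edgeR fit, 0.00 by DESeq2, -0.08 with TMM of the antisense table and -0.47 scaled to the members, and changes of single genes move with it.

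The number of members was 398 with a minimum count of 20, 395 with a minimum ratio of 0.5, and 476 to 509 without 1 library. Members overlapping an opposite-strand gene fell from 389 to 386 with at least 100 bases and to 208 between exons, where exon rows covered fewer members. Of members without overlap, 18 had an opposite-strand gene within 1000 bases, 34 within 5000 and 36 within 10000. The labels give no replicate numbers, so libraries could be matched only by their cycle. In the test of antisense relative to sense, both counts of a library were matched. With a term that separates the first cycle (22 to 40 h) from the second (46 to 64 h), the test called 0 antisense rows over 24 h, with 182 rows and 52 members at an unadjusted p under 0.05 (edgeR), and 21 sense genes. Antisense reads were few, 149603 to 149800 per library over all genes, which limits precision at low counts.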
